A study of Homo sapiens with 2 samples.

Results

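The CPEB family comprises 4 human genes, CPEB1, CPEB2, CPEB3 and CPEB4, whose proteins bind mRNA and set how long its poly(A) tail is and how much of it is translated. The array carried 13 probe sets that the platform annotation assigns to exactly 1 of these genes, out of 41091 probe sets with 1 gene name and 54675 probe sets in all: 2 for CPEB1, 3 for CPEB2, 4 for CPEB3 and 4 for CPEB4. The family was picked with these differences known, so they are given as a description and carry no test. RNA came from C4-2, an androgen receptor-positive human prostate cancer line descended from LNCaP. One sample was transfected with miR-99a, a microRNA, and the other with si-GL2, a control small interfering RNA named after a luciferase reporter; both were transfected with RNAiMax, a lipid reagent, and harvested 48 h later. Each condition has 1 array, so no replicate error and no p-value exist, and every difference below lies between 2 arrays of 1 cell line. The labels do not say whether an array holds 1 culture or several pooled.

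CPEB proteins recognise uridine-rich sequences in the 3' untranslated region of an mRNA, in the case of CPEB1 the cytoplasmic polyadenylation element. They do so through a pair of RNA recognition motifs and a zinc-binding domain at the C terminus. CPEB1 is the founding member, known from oocytes, where it first holds mRNAs silent and, once phosphorylated, promotes lengthening of their tails. CPEB2, CPEB3 and CPEB4 form a closer subgroup with related RNA-binding domains, studied mainly in neurons, where they control synaptic translation, and in dividing and tumour cells.

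The sample title names the transfected microRNA only as miR-99a, which is taken here to be the mature hsa-miR-99a-5p. It is shown with the mature microRNAs that share its seed, bases 2 to 8 from the 5' end. The seed is the stretch that selects mRNAs for repression. In RefSeq (GRCh38.p14), 3 of 2545 mature human sequences carried this seed, which is printed in capitals.
hsa-miR-99a-5p: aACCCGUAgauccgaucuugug
hsa-miR-100-5p: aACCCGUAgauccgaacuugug
hsa-miR-99b-5p: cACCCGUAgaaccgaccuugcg
The first is encoded at chr21:16539101-16539122 on the plus strand. The miR-100 sequence differs from it at 1 of 22 bases and the miR-99b sequence at 4, all outside the seed. An mRNA site that pairs with the whole seed reads UACGGGU; the CPEB transcripts were not searched for it here. Neither array measures the mature microRNA, so its level after transfection is not known from these data.

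Signals are the authors' deposited intensities on a linear scale. Differences are miR-99a minus si-GL2 in log2(signal + 16), a scale that understates changes of dim probe sets, and 1.5-fold corresponds to 0.58 on it. A probe set counts as expressed here when its mean over both arrays reaches the median of all probe sets, a signal of 47.2; this limit ranks a probe set against the rest and does not say whether the mRNA was detected. The array medians were 47.8 and 47.4, and the 18 hybridisation spike probe sets differed by between -0.12 and 0.06. Of 10 luminal prostate markers, 8 had a probe set with 1 gene name, and all 8 were expressed, with signals from 312 to 7147 and differences between -0.20 and 0.31. The basal keratins KRT5 and KRT14 lay below the limit on both arrays (14.8 to 25.7), as did the leukocyte gene PTPRC (39.5 after miR-99a, 22.5 after si-GL2), while 1 of 3 leukocyte, 3 of 4 fibroblast and 1 of 3 endothelial markers measured reached it. None of these markers differed by 1.5-fold at its brightest probe set where expressed.

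After miR-99a, mRNA signals of CPEB3 and CPEB4 lay at 36.3% to 55.5% of those on the control array by 6 of their 8 probe sets; CPEB2 was lower by 2 of 3 and CPEB1 was dim on both arrays. Over the family, 8 of 13 probe sets were lower by 1.5-fold or more and 0 higher by as much, beside 3.72% and 3.39% of all probe sets with 1 gene name. At 2-fold, 4 of the 13 were lower, against 0.377%. Since the family was chosen on these differences, the counts describe it and support nothing further. All 8 expressed CPEB probe sets lay below 0, while 43.7% of all expressed genes lay above 0 by their brightest probe set. Of the 8, 7 were 1.5-fold lower (2.76% of all expressed probe sets). Of those 7, 1555250_a_at and 239765_at of CPEB3 and 235479_at of CPEB2 read 44.3, 32.4 and 37.3 after miR-99a, below the expression limit. They counted as expressed only through their higher control signals, so the count of 7 depends on how the limit is applied. Of the 5 dim CPEB probe sets, 1 was 1.5-fold lower (4.87% of all dim ones). The median difference over the 13 was -0.71, beside -0.03 over all expressed genes.

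**Figure D1:**
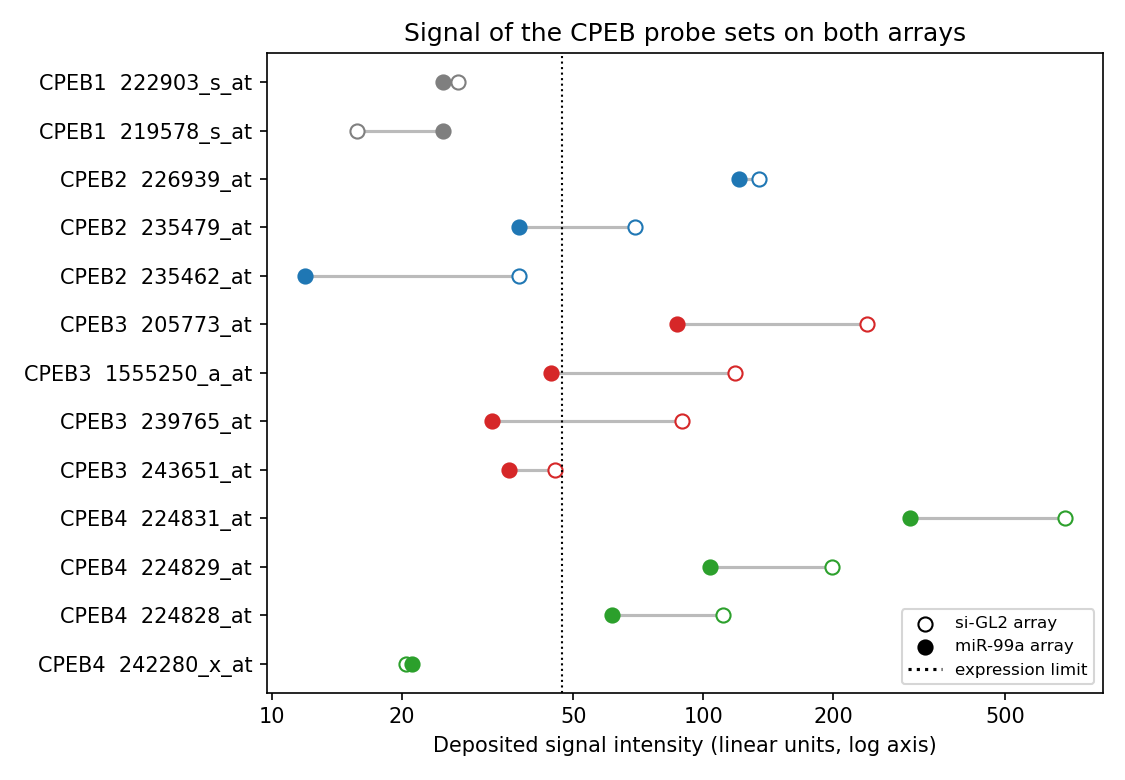
Deposited signal of each CPEB probe set (horizontal axis, linear units on a log axis) on the si-GL2 array (open points) and the miR-99a array (filled points), 1 array each, with a dotted line at the expression limit of 47.2. The filled point lies left of the open point for 11 of 13 probe sets, and the gap is widest for 3 CPEB3 probe sets, the brightest CPEB4 probe set and the dimmest CPEB2 probe set.

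CPEB3, which in neurons restrains translation of glutamate receptor mRNAs, had the lowest single difference of the family on the log2(signal + 16) scale; with 1 added in place of 16 the lowest was -1.57, at the dim CPEB2 probe set 235462_at. Its brightest probe set, 205773_at, read 87.0 after miR-99a and 239 after si-GL2, or 36.4% of the control. On the log2(signal + 16) scale its difference was -1.31, the rank 15 from the bottom among 12218 expressed genes, each taken by its brightest probe set. The probe set 1555250_a_at read 44.3 against 118, a difference of -1.16. The probe set 239765_at read 32.4 against 89.2, a difference of -1.12. These 3 thus gave 36.3% to 37.4% of the control signal. The fourth, 243651_at, was dim on both arrays at 35.5 against 45.4 and differed by only -0.25. On the miR-99a array 3 of the 4 CPEB3 probe sets read below 47.2, against 1 of 4 on the control array.

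CPEB4, a paralog linked to translation in mitosis, to stress responses and to tumour growth, was lower by 3 of 4 probe sets. The brightest, 224831_at, read 301 after miR-99a and 687 in the control, or 43.9% of the control, a difference of -1.15 and rank 26 from the bottom among expressed genes. The other expressed probe sets read 103 against 199 (224829_at, -0.85) and 61.5 against 111 (224828_at, -0.71). The 3 expressed probe sets agreed in direction and ran from 43.9% to 55.5% of the control, a wider span than for CPEB3. The fourth, 242280_x_at, was dim on both arrays at 21.1 against 20.5 (0.02); the suffix _x_at marks probes that can bind unrelated transcripts.

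CPEB2, which is known to slow translation elongation by binding the elongation factor EEF2, gave a divided picture. Its brightest probe set, 226939_at, read 121 after miR-99a and 135 in the control, a difference of -0.14, so CPEB2 was not counted among the lower genes. The other 2 were lower past 1.5-fold from weak signals. They read 37.3 against 69.3 (235479_at, -0.68) and 11.9 against 37.4 (235462_at, -0.93). The last lay below the expression limit on both arrays. Averaged over its 3 probe sets CPEB2 was at -0.58, just short of 1.5-fold.

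CPEB1, the classical polyadenylation factor, was below the expression limit by both probe sets. They read 24.9 against 27.0 (222903_s_at, -0.07) and 24.9 against 15.8 (219578_s_at, 0.36), differing in direction. Both carry the suffix _s_at, used for probes shared by several transcripts. The transcripts annotated beside these genes were not members: CPEB1-AS1 read 1 on both arrays, and CPEB2-DT read 2.34 against 6.82.

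The spread of unrelated probe sets gives a scale for these numbers. Over the 1000 other probe sets nearest in mean level, the SD of the difference was 0.289 for 205773_at of CPEB3 and 0.273 for 224831_at of CPEB4. It was 0.367 for the dimmest CPEB2 probe set, 235462_at, and 0.368 for the 219578_s_at probe set of CPEB1. The 1.5-fold limit therefore lies closer to ordinary variation for dim probe sets than for expressed ones, whichever the gene. The SD was also 0.368 for the dim CPEB4 probe set 242280_x_at and 0.320 for the dim CPEB3 probe set 243651_at. For the brightest CPEB2 probe set, 226939_at, it was 0.281. This SD is taken over different genes on the same arrays and is not a replicate error.

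**Figure D2:**
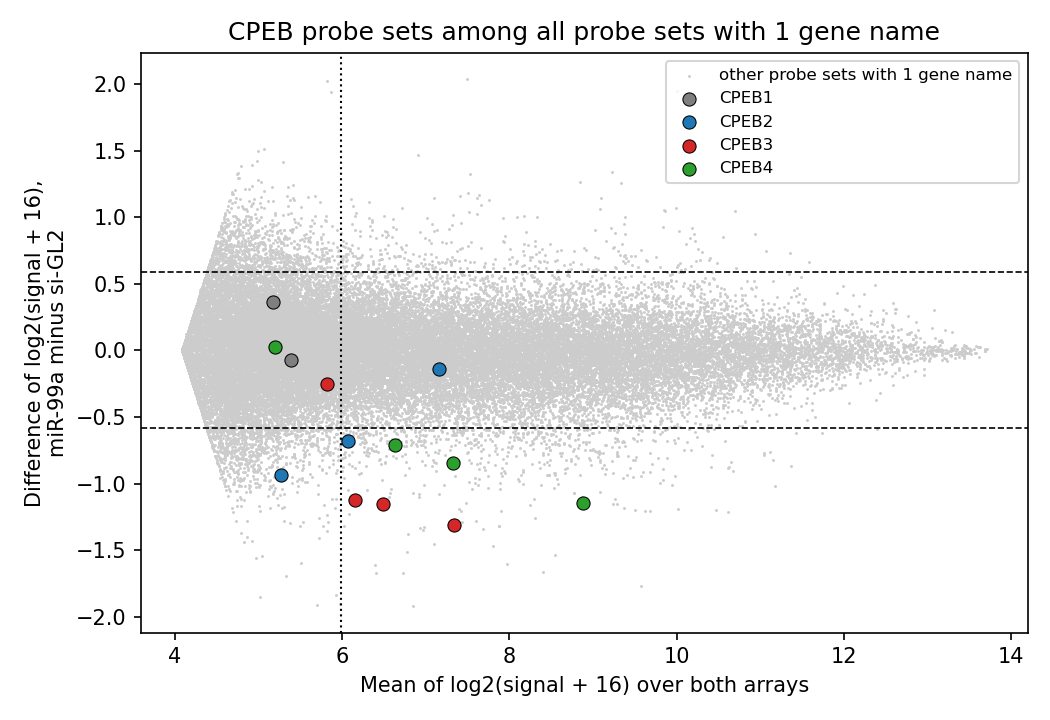
Difference of log2(signal + 16), miR-99a minus si-GL2, against its mean over both arrays for every probe set with 1 gene name (grey) and the CPEB probe sets (coloured by gene); dashed lines mark 1.5-fold and the dotted line the expression limit. The 3 expressed CPEB3 points lie between -1.31 and -1.12 and the 3 expressed CPEB4 points between -1.15 and -0.71, below the lower dashed line.

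Of 2611 genes with at least 3 expressed probe sets, 10 were 1.5-fold lower by all of them (0.383%) and 5 were 1.5-fold higher by all (0.191%). CPEB3 and CPEB4 were both among the 10, which describes them and is no check, since the family was chosen on these differences. The CPEB3 probe sets 1555250_a_at and 239765_at reached the limit only through their higher control signals. The other genes, named after their values were seen, were BLOC1S6, IGF1, LIN7C, MAP9, PPM1K, SLC39A6, SMARCA5 and UHMK1. The expressed CPEB3 probe sets spanned 0.19 from lowest to highest difference and those of CPEB4 0.44. Over all 4 probe sets of each gene, dim ones included, the span was 1.06 for CPEB3 and 1.17 for CPEB4.

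The genes nearest to CPEB3 in the 2 log2 signals of the brightest probe set were CXCL16, ATP2B4, PPIL6, MYBL1 and ST6GALNAC4. CXCL16 read 88.3 after miR-99a and 245 in the control, at a distance of 0.04 on the log2 scale, and the other 4 lay at 0.26 to 0.35. The likeness rests on 2 arrays only.

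Promoter sequences are shown for CPEB3 and CPEB4, the family members that were lower together. Each is the 250 bases before an annotated start in RefSeq (GRCh38.p14), 5' to 3' on the gene's strand, with CCAAT boxes (CCAAT, or ATTGG on the other strand) in capitals; the search also covered GC boxes (GGGCGG or CCGCCC).
CPEB3, chr10:92243280-92243529, minus strand: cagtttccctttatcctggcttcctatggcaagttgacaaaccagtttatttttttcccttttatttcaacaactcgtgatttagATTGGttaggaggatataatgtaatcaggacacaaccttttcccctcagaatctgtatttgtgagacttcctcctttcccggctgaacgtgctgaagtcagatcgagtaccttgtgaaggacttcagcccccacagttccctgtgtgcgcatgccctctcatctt
CPEB4, chr5:173888099-173888348, plus strand: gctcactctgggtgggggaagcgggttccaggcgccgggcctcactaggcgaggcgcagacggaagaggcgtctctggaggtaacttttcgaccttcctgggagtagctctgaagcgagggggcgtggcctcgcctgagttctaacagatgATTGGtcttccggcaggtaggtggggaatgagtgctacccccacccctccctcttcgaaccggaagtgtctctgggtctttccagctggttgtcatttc
Each printed window held 1 CCAAT box and 0 GC boxes. Over all 35116 annotated windows of this length, 32.0% held a CCAAT box and 42.6% a GC box, so a CCAAT box in a single window is common. How often 2 windows both hold it was not counted. The window before the CPEB2 start held 4 GC boxes and 0 CCAAT boxes. The CPEB3 start shown lies inside the gene and its window overlaps the non-coding gene LOC124902483. The other CPEB3 window overlaps MARCHF5, a ubiquitin ligase gene, and held 1 GC box and 0 CCAAT boxes, so the shared box depends on the start chosen. MARCHF5, chosen after its values were seen, read 1095 after miR-99a and 1171 in the control (-0.09) by one probe set and 369 against 471 (-0.34) by the other, so neither was 1.5-fold lower. Motif matches are letters in a window, and no binding was measured here.

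Genes whose products work with CPEB proteins were read from a list. Of 33 listed partners, 29 had a probe set with 1 gene name and 28 were expressed. By their brightest probe sets 0 of the 28 were 1.5-fold lower, where 2.90% of all expressed genes were. A single partner (1 of 28, 3.57%) was 1.5-fold higher, where 1.21% were, and the partners' median was 0.04. The list was drawn up from general knowledge, with earlier results of these data known.

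Among the 11 expressed genes of cytoplasmic polyadenylation, differences ran from -0.01 to 0.27 with a median of 0.03. TENT2, the poly(A) polymerase that lengthens tails on CPEB-bound mRNAs, read 793 against 777 (0.03). TENT4B, a second non-canonical poly(A) polymerase, was the highest of the group at 715 against 591 (0.27). PARN, a deadenylase found with CPEB1 in oocytes, read 314 against 308 (0.02). The scaffold gene SYMPK was the lowest at 185 against 187 (-0.01), and FIP1L1, at 0.01 by its brightest probe set, reached -0.53 by another.

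The 11 expressed genes of translational repression and deadenylation had a median of 0.01. TOB2, of a family of adaptors that bring the CCR4-NOT deadenylase to mRNAs, was the 1 partner past 1.5-fold. It read 1441 after miR-99a and 821 in the control, a difference of 0.80, and its second expressed probe set read 319 against 181 (0.76). CNOT8, a catalytic subunit of that deadenylase, read 997 against 710 (0.48), and its 3 probe sets lay between 0.19 and 0.50. TOB1, the adaptor known to join CPEB3 to the deadenylase, had 0.19 at its brightest probe set and 0.63 at its other one. CNOT1, the scaffold of the deadenylase, ran from 0.14 to 0.59 over 3 probe sets. EIF4E, the cap-binding factor, was the lowest by its brightest probe set at 1488 against 1582 (-0.09). The 4 expressed EIF4E probe sets ran from -0.33 to 0.18, so they differed in direction. EEF2 read 10162 against 10135 (0.00).

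Of the kinases and modifiers, 6 were expressed. AURKA, a kinase that phosphorylates CPEB1, was the lowest partner at 1361 against 1663 (-0.29); its other probe sets were at -0.32 and 0.07. BTRC, an adaptor of the ligase that marks CPEB1 for destruction, read 129 against 135 (-0.07). NEURL1, a ubiquitin ligase that acts on CPEB3, read 127 against 116 (0.12). CDK1 had a difference of 0.06 at its brightest probe set, while another of its 4 reached 0.94.

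**Figure D3:**
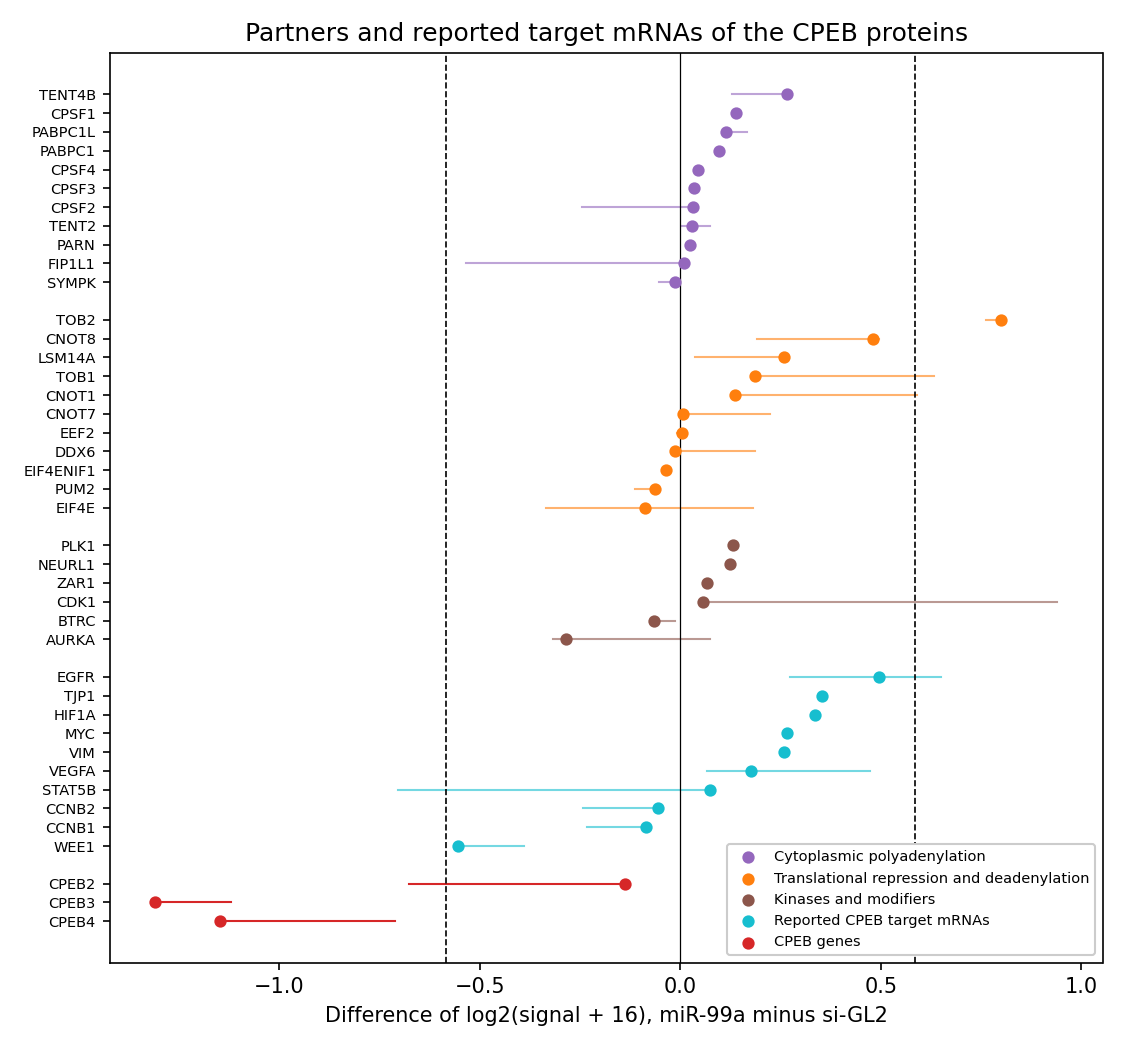
Difference of log2(signal + 16), miR-99a minus si-GL2, for the expressed partners (by role), the expressed reported target mRNAs and the expressed CPEB genes; points are the brightest probe set, thin lines span all expressed probe sets of the gene, and dashed lines mark 1.5-fold. CPEB3 and CPEB4 lie at -1.31 and -1.15, TOB2 at 0.80, and every other point lies within 1.5-fold.

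A further list held mRNAs reported in other systems to be bound or regulated by CPEB proteins. Of 18 listed, 17 had a probe set with 1 gene name and 10 were expressed. By the brightest probe set 0 of the 10 were past 1.5-fold, beside 2.90% lower and 1.21% higher of all expressed genes, shares that amount to less than 1 gene in 10. Of the 10, 7 lay above 0, as did 43.7% of all expressed genes, and the median was 0.22, beside -0.03. Over all 17 measured targets, without the expression limit, the median was 0.07. EGFR, the epidermal growth factor receptor, whose transcription CPEB3 is reported to restrain through STAT5B, was the highest at 1424 against 1006 (0.49). Its 4 expressed probe sets lay between 0.27 and 0.65, the highest past 1.5-fold. Whether the EGFR signal is linked to that of CPEB3 was not tested. The other expressed targets farthest above 0 were TJP1, which encodes a tight junction scaffold (3915 against 3061, 0.35, with its second probe set at 0.36), and HIF1A, the hypoxia-inducible factor (5224 against 4136, 0.34). The brightest of 5 STAT5B probe sets gave 0.07 and the lowest -0.70, which is past 1.5-fold.

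WEE1, a kinase that holds cells before mitosis, was the lowest target at 1010 against 1490 (-0.55), with a second probe set at 81.3 against 111 (-0.39). The mitotic cyclins CCNB1 (3852 against 4088, -0.09) and CCNB2 (2741 against 2847, -0.05) were close to 0. The glutamate receptor genes GRIA1 and GRIA2, the neuronal targets of CPEB3, were below the expression limit on both arrays. CPEB proteins act chiefly on poly(A) tails and translation, which these arrays do not measure.

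**Figure D4:**
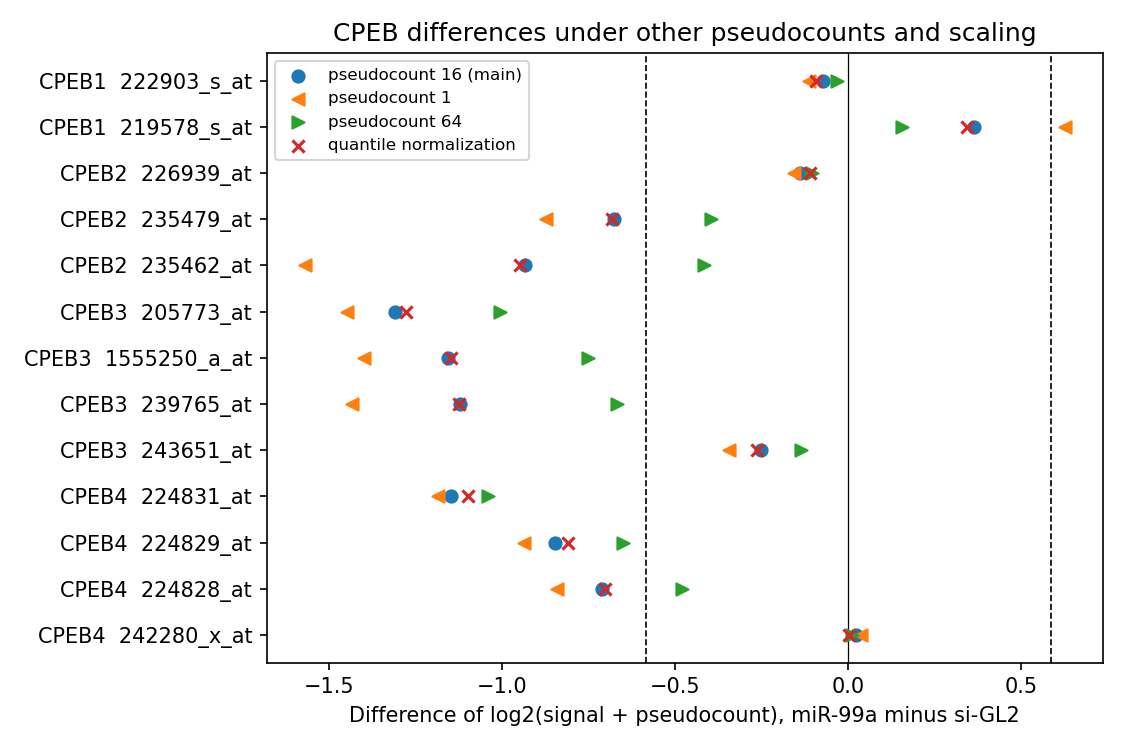
Difference, miR-99a minus si-GL2, of each CPEB probe set with 16, 1 or 64 added to the signal before log2 and after quantile normalization of the arrays with 16 added; dashed lines mark 1.5-fold. The brightest CPEB3 and CPEB4 probe sets stay at -1.01 or lower in all 4 settings, while both lower CPEB2 probe sets pass 1.5-fold with 1 or 16 added and not with 64.

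The size of the CPEB differences depended on the constant added before the logarithm, because most of the signals are small. With 64 added, 5 of the 13 probe sets were 1.5-fold lower, all of CPEB3 or CPEB4. As means over all probe sets, dim ones included, CPEB3 was at -0.96 and CPEB4 at -0.67, both still past 1.5-fold.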

How the data were processed

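Per the labels' protocols, Trizol RNA was labelled with biotin and hybridised to Affymetrix arrays. The deposited values are linear signal intensities, 1 for each probe set on each array; how probes were summarised and arrays scaled is not given in the sources used here. Values were used as deposited, since the array medians differed by 0.01 in log2(signal + 16). The platform annotation gave gene names: 41091 probe sets had 1, 1801 several, 62 were controls and 11721 were left unnamed here. Entrez identifiers of 41037 matched a RefSeq gene table, with 0 symbols changed. For gene counts the brightest probe set stood for each of 19775 genes, and 12218 were expressed. With 1 array per group no test was run, and the number of arrays limits the precision. The CPEB genes, lists and rules were chosen with earlier results of these data known. Named were all CPEB probe sets, the 3 highest and 3 lowest expressed genes of both lists, all past 1.5-fold, genes whose role is described, markers, and the 5 genes nearest to CPEB3. Alternatives were pseudocounts of 1 and 64, centring, quantile normalization, a 2-fold rule, other filters and probe set averaging. Counting was checked on simulated data with 2-fold changes in genes well above the expression limit and less spread than these arrays show. That check does not cover signals as low as those of most CPEB probe sets. Software was Python 3.11.15, numpy 2.4.6, pandas 2.3.3 and matplotlib 3.10.9.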

Additional observations from a re-analysis of the deposited data

How the results depend on the processing

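Of 136 recomputed values, 119 moved by less than the SD of the difference over expressed genes (0.26) or, for counts, stayed within 1.5 times, and 0 of the called values changed sign. Median centring and quantile normalization moved no value beyond these limits, but centring shifts every difference by the same 0.01. A count of 0 could not rise under the 2-fold rule, and none of the 8 lower probe sets carries the suffix _s_at or _x_at. The count of 119 therefore includes values that could hardly move and does not measure robustness. With a pseudocount of 64 the median over the 13 probe sets was -0.42 in place of -0.71, 5 probe sets were 1.5-fold lower in place of 8, and CPEB3 was at -1.01. With a pseudocount of 1, 1 CPEB probe set, of CPEB1, was 1.5-fold higher. Under the 2-fold rule 4 CPEB probe sets were lower and 0 partners higher. As means over probe sets CPEB2 was at -0.58, CPEB3 at -0.96 and CPEB4 at -0.67. Without _s_at and _x_at probe sets CPEB1 had no value. A larger constant shrinks dim differences by construction. Averaged over expressed probe sets alone, an alternative chosen after seeing the data, CPEB2 was at -0.41, CPEB3 at -1.20 and CPEB4 at -0.90. That average keeps 1555250_a_at and 239765_at of CPEB3 and 235479_at of CPEB2, which reached the limit only through the control array. How much of the shift on averaging comes from dim probe sets therefore depends on the limit. No paired analysis was possible because each group holds 1 array.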
